A study of Mus musculus with 12 samples.

Results

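Accessible chromatin was described at 9 genes for leukocyte adhesion molecules: the integrin alpha chain genes Itgam, Itgal, Itgax and Itga4, the beta chain genes Itgb2, Itgb2l, Itgb1 and Itgb7, and Selplg. Selplg encodes a selectin ligand, and no selectin gene itself is in this set. A region belonged to a gene when it overlapped that gene, or when that gene's start or end was the nearest among GRCm38 protein-coding genes within 50 kb. By this rule 12 of the 16028 regions in the union of the 6 peak lists were assigned to the 9 genes, and each gene had 1 or 2. Of all 21900 protein-coding genes in the table, 47.8% had a region. Among the genes with any region, 73.0% had 1 and 17.9% had 2.

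The cells were murine ER-Hoxa9-Lys-GFP cells of strain C57BL/6, grown in medium conditioned with stem cell factor. They are myeloid progenitors in which Hoxa9, fused to the hormone-binding part of the estrogen receptor, blocks maturation while estradiol (E2) is present. All groups carry this fusion and a GFP reporter for lysozyme, and whether the line is 1 clone is not given in the sources used here. ATAC-seq, in which the Tn5 transposase inserts sequencing adapters into open chromatin, was run on 12 libraries in 6 groups of 2. The end points were continuous E2 and 120 h of withdrawal. In the 4 groups between them, E2 was withdrawn for 24, 40, 56 or 72 h and returned for the rest of the time (96, 80, 64 or 48 h). The longer the withdrawal, the shorter therefore the add-back. One peak list per group gave positions only, with no score, count or depth, so there were no replicate values and no test between groups. The labels' protocol splits nuclei into separate transposition reactions, and nothing says whether the libraries of a group came from separate cultures.

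Integrins are pairs of an alpha and a beta chain. The beta2 integrins are restricted to leukocytes, and myeloid cells use them for firm adhesion, migration and phagocytosis. The alpha4 chain pairs with beta1 or beta7 and holds progenitors to stroma, while the Selplg product, PSGL-1, carries the first rolling contact with selectins on endothelium. In immature myeloid cells the alpha4 and beta1 chains are typical, and Itgam is a classical marker of maturing granulocytes and monocytes.

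Promoters of 6 of the 9 genes were found in the RefSeq table (GRCm38.p6), and 4 are shown because they hold the contrast that the peak lists gave. The windows of Itga4 and Itgb1 were covered by peaks, and those of Itgam and Itgb2l by none. Each is the 250 bases before the annotated start, with matches to any of 8 searched words in capitals. The Itga4 window lies at chr2:79255176-79255425 (plus strand), that of Itgb1 at chr8:128685404-128685653 (plus), that of Itgam at chr7:128062390-128062639 (plus) and that of Itgb2l at chr16:96443615-96443864 (minus).
Itga4: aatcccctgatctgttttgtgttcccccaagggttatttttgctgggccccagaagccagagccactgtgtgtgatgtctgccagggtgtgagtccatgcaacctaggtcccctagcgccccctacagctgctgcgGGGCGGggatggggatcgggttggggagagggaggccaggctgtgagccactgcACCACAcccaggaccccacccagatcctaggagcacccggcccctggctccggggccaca
Itgb1: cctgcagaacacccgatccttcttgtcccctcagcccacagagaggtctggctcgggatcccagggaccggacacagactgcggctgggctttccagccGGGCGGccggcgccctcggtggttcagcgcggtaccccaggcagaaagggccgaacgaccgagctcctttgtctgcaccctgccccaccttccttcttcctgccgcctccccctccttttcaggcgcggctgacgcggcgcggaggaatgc
Itgam: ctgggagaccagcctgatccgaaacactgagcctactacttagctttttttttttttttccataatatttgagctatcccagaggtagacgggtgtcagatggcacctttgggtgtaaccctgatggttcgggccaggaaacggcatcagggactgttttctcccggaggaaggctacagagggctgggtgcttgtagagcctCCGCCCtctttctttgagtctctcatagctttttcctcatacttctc
Itgb2l: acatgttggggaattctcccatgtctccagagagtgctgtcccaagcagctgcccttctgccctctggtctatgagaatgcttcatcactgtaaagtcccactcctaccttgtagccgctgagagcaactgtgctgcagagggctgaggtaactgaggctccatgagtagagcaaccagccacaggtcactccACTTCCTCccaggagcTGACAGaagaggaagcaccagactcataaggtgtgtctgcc

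The words, searched on both strands, were GAGGAAGT (PU.1), CCGGAAGT (other ETS factors), TGTGGT (RUNX), TTGCNNCAA (C/EBP), TGANTCA (AP-1), GGGCGG (SP and KLF factors), TGATTNAT (HOX with PBX) and TGACAG (MEIS). The pair of ETS words shares GGAAGT and cannot match at 1 place together, and no other overlap was found in these windows. The Itga4 window held GGGCGG at -114 to -109 and the reverse complement of TGTGGT at -60 to -55, counted from the start. The Itgb1 window held GGGCGG at -151 to -146. The Itgam window held the reverse complement of GGGCGG at -47 to -42. In the Itgb2l window the reverse complement of GAGGAAGT stood at -57 to -50 and TGACAG at -41 to -36. Of all 32851 promoters in the table, 32.7% held GGGCGG, 14.0% TGTGGT, 15.9% TGACAG and 2.44% GAGGAAGT. CCGGAAGT was in 2.88%, TGANTCA in 6.75%, TGATTNAT in 2.82% and TTGCNNCAA in 1.74%. Among the 5187 promoters called in all 6 lists, 69.8% held GGGCGG, against 19.3% of the 22986 called in none. For TGTGGT these shares were 9.22% and 15.7%, for TGACAG 13.6% and 16.8%, and for GAGGAAGT 2.47% and 2.35%. A match is a string of letters and says nothing about binding.

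**Figure D1:**
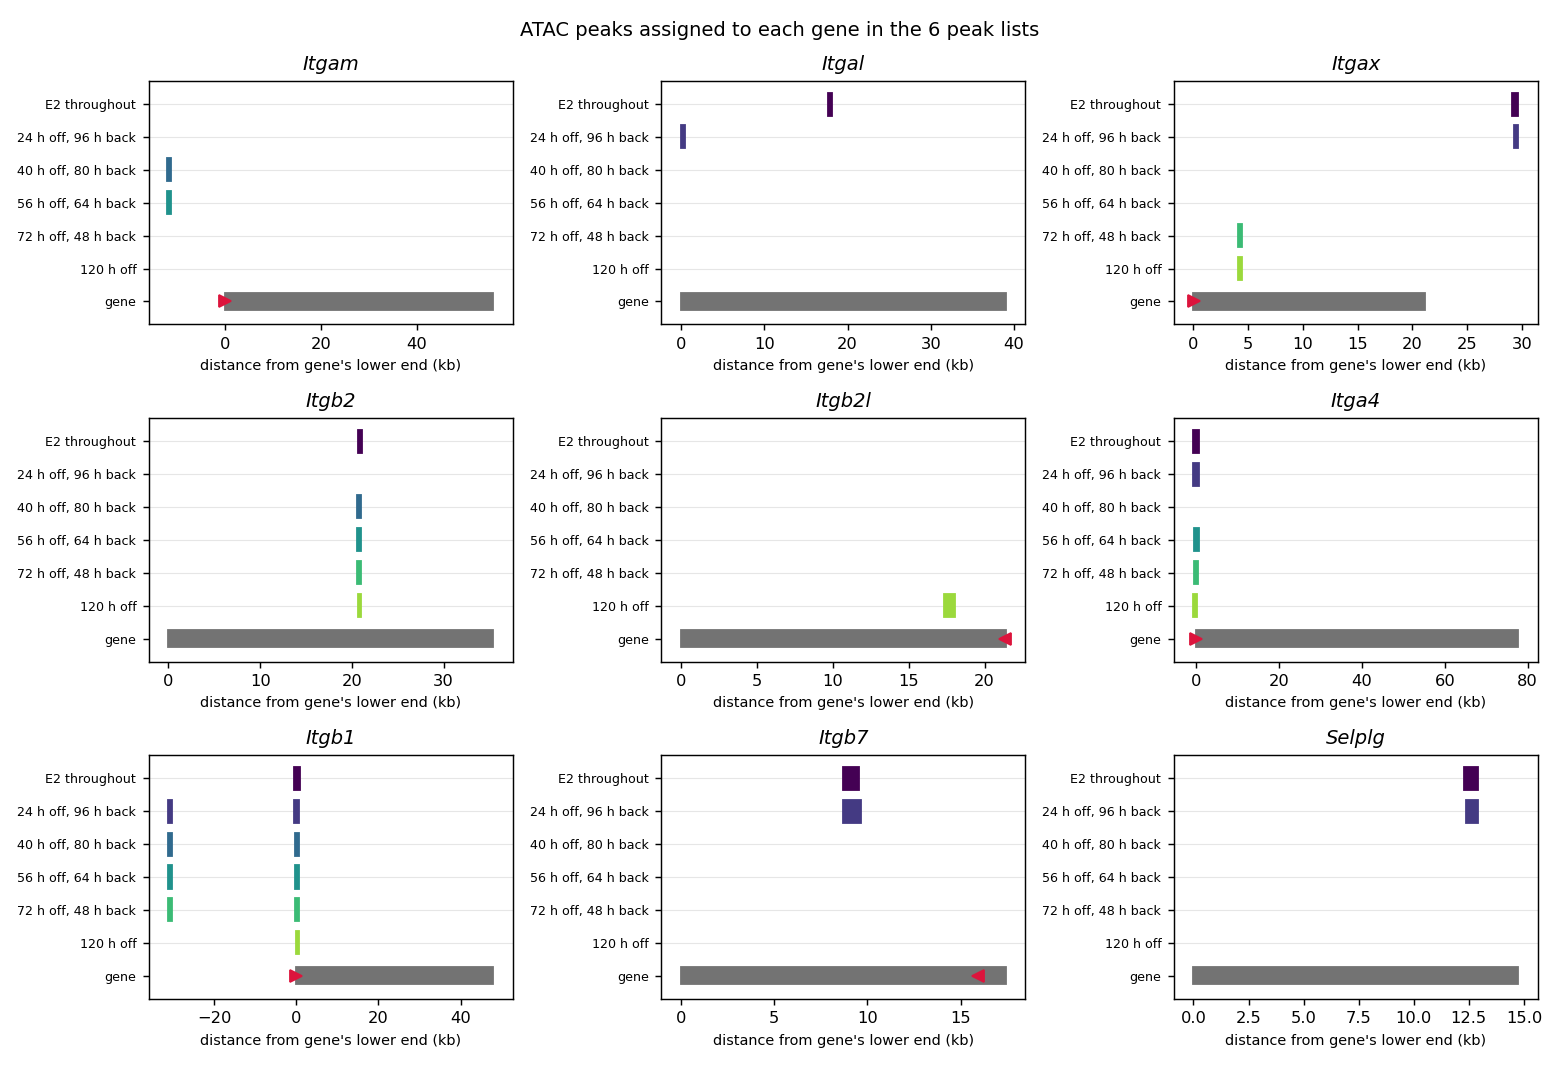
Position of every peak assigned to the 9 genes. The x axis is the distance in kb from the end of the gene with the lower coordinate, each row is 1 of the 6 peak lists, the grey bar is the gene and the red arrowhead the RefSeq start and direction where the promoter table gave one; very narrow peaks are drawn wider than they are so that they can be seen. Peaks at the starts of Itga4 and Itgb1 recur in 5 and 6 lists, while most other positions appear in 1 or 2.

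The first comparison set continuous E2 against 120 h without it. A region called in E2 and not at 120 h is termed lost, the reverse gained, and one called in both kept. Lost regions lay at Itgal, downstream of Itgax, in Itgb7 and in Selplg. Gained regions lay in Itgax and Itgb2l, genes of the beta2 family, and kept ones in Itgb2 and at the starts of Itga4 and Itgb1. The remaining 3 regions, at Itgam, Itgal and Itgb1, were called only after add-back. In a bulk library, fewer cells with an open site and a less open site in each cell cannot be told apart.

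Of the 7 regions called in E2, 4 were lost (57.1%), against 50.6% of all regions. Of the 5 called at 120 h, 2 were gained (40.0%), against 18.4% of all. Distance from gene starts and ends differed between these sets. Of the 12 regions, 9 (75.0%) lay more than 1000 bases from the start or end of their gene. Of all regions, 50.5% lay this far from the start or end of their gene or had no gene within 50 kb. Among regions this far away, 4 of 5 of the integrin and Selplg regions called in E2 were lost (80.0%), against 73.8% of all such regions, and 2 of 3 called at 120 h were gained, against 36.2%. At gene starts and ends neither of the 2 regions called in E2 was lost and neither of the 2 called at 120 h was gained, where 29.5% and 9.89% of all such regions were. The lost share was thus near its background away from gene starts and ends, and the gained count rests on 2 regions. Regions called at neither end point were 3 of 12 here and 8.71% of the union.

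**Figure D2:**
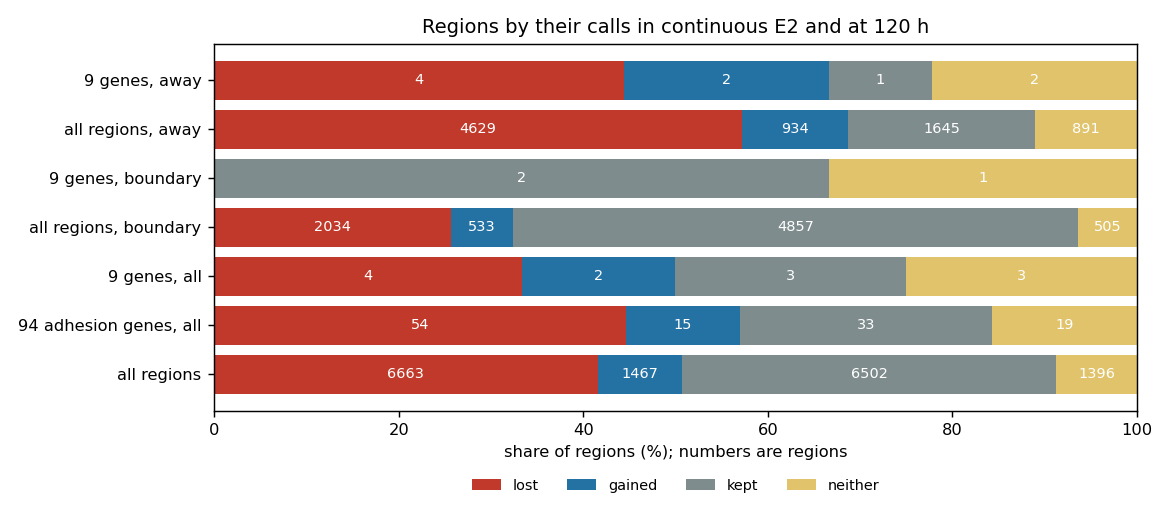
Share of regions (x axis, %) that were lost, gained, kept or called at neither end point, for the 9 genes, for 94 other adhesion genes and for all regions, also split into regions at a gene start or end and away from them; numbers in the bars count regions. All 4 lost and both gained regions of the 9 genes lay away from gene starts and ends.

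The alpha chains of the beta2 integrins, Itgal, Itgam and Itgax, lie on chromosome 7, Itgam and Itgax side by side, and none of their 5 regions was called at both end points. Of all regions 40.6% were, but of those away from gene starts and ends, where 4 of the 5 lie, only 20.3%. Itgax encodes alpha X (CD11c), a complement and fibrinogen receptor chain of macrophages, dendritic cells and neutrophils. Its gained region lay within the gene (chromosome 7, 128133609 to 128133909), 4059 bases downstream of the start. It had peaks of 289 bases after 72 h of withdrawal with add-back and 296 bases at 120 h. These were narrow, wider than 6.36% and 7.0% of peaks in their lists. The list of continuous E2 and that of 24 h had instead a region past the other end of Itgax (chromosome 7, 128158670 to 128159175), with widths of 506 and 384 bases. Those peaks were wider than 13.7% and 6.92% of their lists. No list held both of these Itgax regions. The second one lay 8013 bases from Itgax and 14758 bases from Itgad, the alpha D chain gene, and it overlaps the pseudogene Gm17831.

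Itgam encodes alpha M (CD11b), the complement receptor chain that marks mature myeloid cells. No region of any list lay within its 55852 bases. The single region assigned to it (chromosome 7, 128050814 to 128051078) lay 11562 bases upstream of the start and was called after 40 h, with a width of 230 bases, and after 56 h, with 265 bases. Only 30 regions of the union were called in just these lists, and the peaks were among the narrowest, with 1.18% and 3.97% of their lists narrower. The nearest peak in the lists of continuous E2, 24, 72 and 120 h was 82358 to 82856 bases away. It lay on the side away from Itgam in continuous E2 and after 24 h, and past the whole of Itgam after 72 and 120 h. A pseudogene, Gm9299, lay nearer to this region, at 8224 bases.

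Itgal encodes alpha L, which with beta2 forms LFA-1, a receptor for ICAM1. It had a different region in each of 2 lists. In continuous E2 a peak of 516 bases lay within the gene (chromosome 7, 127313809 to 127314324), 17670 bases from the nearer gene end. After 24 h a peak of 416 bases covered the lower end of the gene (chromosome 7, 127296109 to 127296524). The peaks were wider than 14.7% and 9.05% of their lists. Neither region was called in the lists of 40, 56, 72 or 120 h. Of the 5 regions given to neighbouring genes, 10092 to 41389 bases from Itgal, those of Sephs2, Dctpp1, Zfp771 and Zfp768 were called in all 6 lists. That of Zfp747, 40513 bases away, was lost, with calls in continuous E2 and after 24, 40 and 72 h.

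The beta2 chain gene itself, Itgb2, kept a region within the gene (chromosome 10, 77550983 to 77551329), 14379 bases from the nearer end. CD18, its product, is the partner of all the beta2 alpha chains. The peak measured 306 bases in continuous E2, 269 after 40 h, 239 after 56 h, 255 after 72 h and 346 at 120 h, and was not called after 24 h. It was thus widest at 120 h, where kept regions away from gene ends had a median ratio of 120 h to E2 width of 0.677 and only 7.84% of them were wider at 120 h. The ratio of Itgb2 was 1.13, above 97.4% of these 1645 regions, which were not matched to it for width in E2. Regions away from gene ends called in all 6 lists had a median width of 806 bases in E2. The Itgb2 peaks were narrow in every list, wider than 2.23% of peaks in E2 and 11.7% at 120 h. Whether so narrow a peak could show the usual narrowing and still be called was not tested. Regions of Fam207a and Pttg1ip, 13986 and 15696 bases from Itgb2, were called in all 6 lists, including that of 24 h.

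Itgb2l encodes a beta2-like protein of neutrophils. Its region (chromosome 16, 96439616 to 96440310) was called at 120 h alone, with a width of 695 bases, and lay within the gene, 3304 bases downstream of the start. This was the widest peak among the gained and lost regions of the beta2 family, wider than 70.2% of the peaks in its list. Of all regions, 458 were called at 120 h alone, and their median width was 342 bases. The nearest peak lay 66513 bases away in continuous E2 and 247079 bases away after 72 h. The region also overlaps Igsf5, whose nearer end is 25262 bases away.

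The alpha4, beta1 and beta7 chain genes had 4 regions. Itga4, which encodes the alpha4 chain of VLA-4, had a region over its start (chromosome 2, 79254725 to 79256109). Its width was 1385 bases in continuous E2, 1361 after 24 h, 1194 after 56 h, 1073 after 72 h and 958 at 120 h, and no peak was called after 40 h, when the nearest lay 114576 bases away. These peaks were wider than 92.0% to 97.5% of their lists. Of all regions, 224 were missing from the 40 h list alone, 160 of them at a gene start or end. In the 5 lists the upstream edge moved by at most 47 bases and the downstream edge by 427 bases, and the peak covered all 250 bases of the printed window each time.

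Itgb1 encodes beta1, the partner of alpha4 and of many other alpha chains. The region over its start (chromosome 8, 128685141 to 128686555) was the only one of the 12 called in all 6 lists (8.33%), against 32.8% of all regions. At gene starts and ends it was 1 of 3, against 51.9% of all such regions. Its width was 1415 bases in continuous E2, then 1192, 962, 984 and 942 bases after 24, 40, 56 and 72 h, and 829 bases at 120 h. The peak covered the printed window whole in every list but that of 120 h, where it covered 164 of the 250 bases. The ratio of 120 h to E2 width was 0.586 for Itgb1 and 0.692 for Itga4, and the median of 4857 kept regions at gene starts and ends was 0.663, with quartiles of 0.562 and 0.768. Both genes therefore lay within the range of most such regions.

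The second region of Itgb1 (chromosome 8, 128654447 to 128655089) lay 30565 bases upstream of the start. It was called in the 4 add-back lists, with widths of 621, 532, 555 and 533 bases after 24, 40, 56 and 72 h, and at neither end point. In the union 116 regions had this pattern, 52 of them away from gene starts and ends. The nearest peak at both end points was the one at the Itgb1 start, 30051 bases away in continuous E2 and 30400 bases at 120 h. A small nuclear RNA gene, Gm26002, lay nearer, at 3344 bases. This was the farthest of the 12 regions from its gene. Beyond the limit of 50 kb, the next regions with one of the 9 genes as the nearest lay 122686 and 146885 bases from Itga4.

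Itgb7 encodes beta7, which with alpha4 binds MAdCAM1 on gut endothelium. Its region (chromosome 15, 102224686 to 102225634) lay within the gene, 6301 bases downstream of the start. The peak measured 869 bases in continuous E2 and 949 bases after 24 h, and was called in no other list. Selplg had the same pattern, with a region within the gene (chromosome 5, 113830091 to 113830731), 1797 bases from the nearer end, of 617 bases in continuous E2 and 574 after 24 h. From 40 h on, the nearest peak was at least 17748 bases from the Itgb7 region and at least 29411 bases from that of Selplg.

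**Figure D3:**
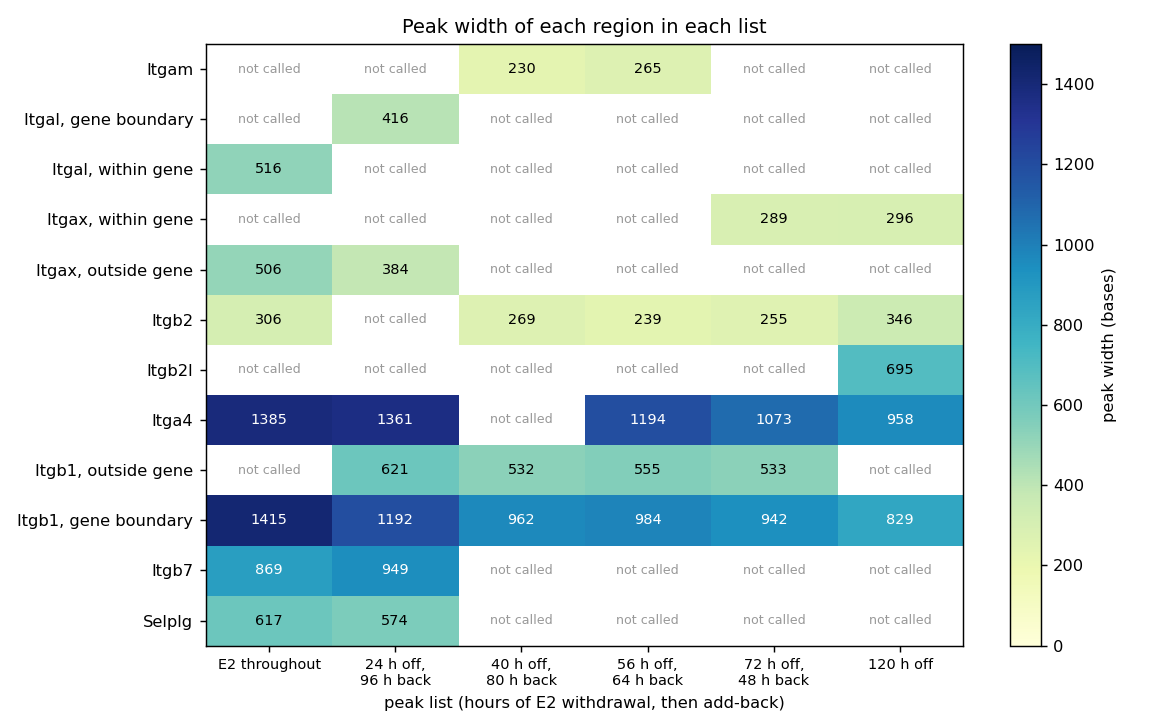
Peak width in bases (colour and printed number) of each of the 12 regions (rows) in each of the 6 lists (columns, hours without E2 and hours with E2 back). The regions downstream of Itgax, in Itgb7 and in Selplg were called in the lists of continuous E2 and 24 h, and the starts of Itga4 and Itgb1 had the widest peaks in every list that called them.

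The second comparison asked which end point each gene resembled after E2 was returned. Calls for the 9 genes numbered 7 in continuous E2, then 7, 4, 5 and 5 after 24, 40, 56 and 72 h, and 5 at 120 h, out of 12 regions. Calls over all regions of the union also became fewer, from 82.1% in continuous E2 to 71.4%, 61.9%, 55.9% and 59.5% in the add-back lists and 49.7% at 120 h. The 3 lost regions of Itgax, Itgb7 and Selplg were called after 24 h and the fourth, in Itgal, was not, where 58.5% of all lost regions away from gene ends were called after 24 h. All 4 were missing after 40, 56 and 72 h, as were 60.7% of lost regions away from gene ends. The pattern of Itgax, Itgb7 and Selplg, called in continuous E2 and after 24 h only, occurred in 1394 regions, 8.7% of the union. Of the 2 gained regions neither was called after 24, 40 or 56 h, which held for 62.8% of gained regions away from gene ends. The Itgax one was called after 72 h, a pattern of 201 regions in the union. With 4 lost and 2 gained regions, the shares do not set these genes apart from other regions.

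**Figure D4:**
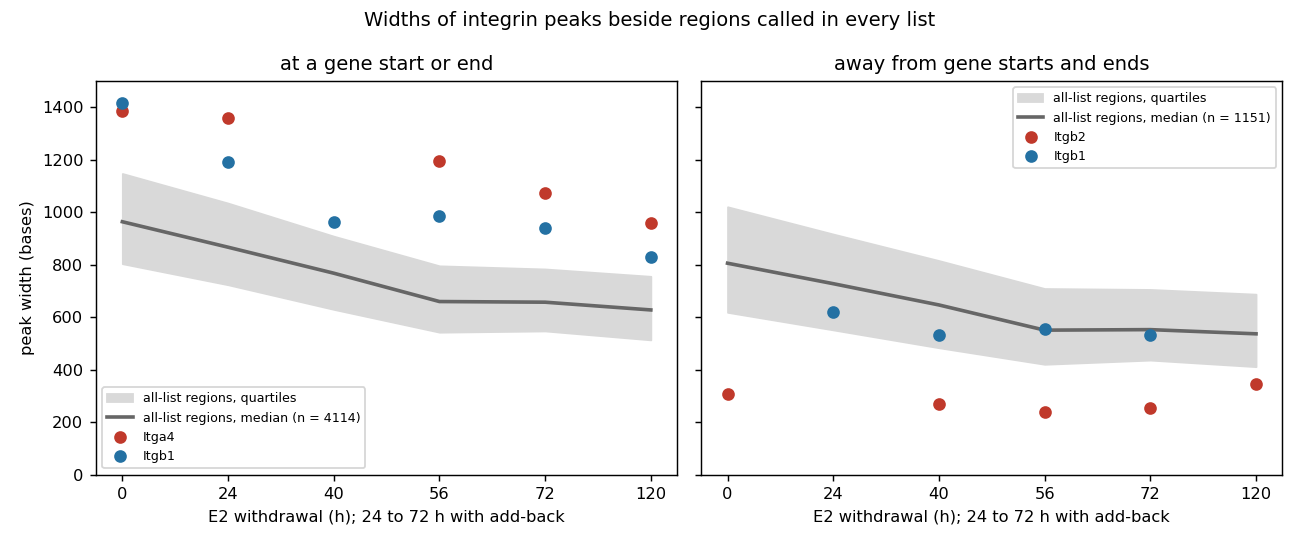
Peak width in bases (y axis) against hours of E2 withdrawal (x axis, evenly spaced lists) for Itga4 and Itgb1 at gene starts (left) and for Itgb2 and the upstream Itgb1 region (right). Grey lines and bands are the median and quartiles of regions called in all 6 lists, 4114 at gene starts or ends and 1151 away; Itga4 and Itgb1 lay above the upper quartile at their starts, and Itgb2 below the lower quartile, in every list that called them.

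Peaks narrowed across the series. Regions called in all 6 lists at gene starts or ends had median widths of 964 bases in continuous E2 and 628 at 120 h, and the lists shortened from 13165 to 7987 peaks. Peak width and list length thus moved with the calls, and their part in the losses was not tested. When each list was held to its 7987 widest peaks, the lost regions were 1, that of Itgb7, and the gained ones 3, with Itgb2 among them because its peak passed only at 120 h. The 120 h list has 7987 peaks and was left whole, so narrow peaks were cut from the other lists alone. When only peaks no narrower than their list's median were kept, Itgb7 was the only lost, Itgb2l the only gained, and Itga4 and Itgb1 the only kept genes.

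The promoters that were called were not all of 1 kind in base composition. The 250 bases of Itgb1 held 21 CpG and were 68.0% G or C, and those of Itga4 held 6 CpG and were 64.0% G or C. Itgam also had 6 CpG, at 49.6% G or C, while Itgax and Itgb7 had 5 each and Itgb2l had 1. Among promoters with 21 or more CpG, 72.2% met a peak in at least 1 list and 43.2% in all 6. Among those with 6 to 10 the shares were 26.7% and 9.82%, among those with 3 to 5 they were 6.78% and 1.42%, and with 0 to 2 they were 2.02% and 0.189%. Uncalled promoters at Itgam, Itgax, Itgb7 and Itgb2l thus shared their state with most promoters of like CpG content.

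Regions of other genes around the 9 were also counted. Within 50 kb of one of them lay 16 regions assigned to another gene, of which 10 were kept, 5 lost and 0 gained, and 8 were called in all 6 lists. Near Selplg, a pair of regions assigned to Tmem119 was lost, 1 with calls in continuous E2 and after 24 h and 1 also after 40 h.

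A list of 94 other genes of adhesion gave 121 regions at 60 genes, where 47.8% of all protein-coding genes had a region. Of 87 regions called in E2, 54 were lost (62.1%), and of 48 called at 120 h, 15 were gained (31.2%), where all regions had 50.6% and 18.4%. Of the 121 regions, 86 (71.1%) lay away from gene starts and ends. Of the 59 called in E2 there, 42 were lost (71.2%), and of the 29 called at 120 h, 12 were gained (41.4%). The shares for all regions away from gene starts and ends were 73.8% and 36.2%. At gene starts and ends 12 of 28 were lost (42.9%) and 3 of 19 gained (15.8%), against 29.5% and 9.89%.

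Other integrin chains had 13 regions at 9 of 19 genes, 11 of them away from gene starts and ends. Of 7 called in E2, 5 were lost (71.4%), against 50.6% of all regions and 73.8% of those away from gene starts and ends. Of 4 called at 120 h, 2 were gained, against 18.4% of all regions and 36.2% of those away from gene starts and ends. Here 2 were kept, and 4 were called at neither end point. Itga2, the collagen receptor chain, had 3 lost regions, and the gained regions were assigned to Itga8 and Itgb5. Selectins and their ligands had 1 lost of 3 called in E2 and 1 gained of 3 called at 120 h. They kept 2, and 3 were called at neither end point. The P-selectin gene Selp had 1 region called in all 6 lists, and Cd44, the hyaluronan receptor that also carries E-selectin ligands, had 1 lost and 1 kept. Enzymes that glycosylate selectin ligands had 7 of 13 E2 regions lost (53.8%) and 1 of 7 at 120 h gained (14.3%). Of their regions 6 were kept, and 3 were called at neither end point. St3gal6, a sialyltransferase, had 4 of the lost ones and 1 kept, and Gcnt1, which builds branched O-glycans, had the gained one. Fut7, which adds the fucose that selectins need, had 1 region, called after 24 and 40 h only.

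Immunoglobulin partners had 3 of 5 E2 regions lost (60.0%), 1 of 3 at 120 h gained, and 2 kept. Icam1, the ligand of LFA-1, had 1 lost region with the calls of Itgb7 and Selplg, in continuous E2 and after 24 h. Cd47, which binds SIRP alpha, had 2 kept and 1 lost. Genes that activate integrins from inside had 10 of 16 E2 regions lost (62.5%) and 3 of 9 at 120 h gained (33.3%). Here 6 were kept and 1 was called at neither end point. Cytip, which binds the integrin regulator cytohesin-1, had 3 lost, and Apbb1ip, the Rap1 effector RIAM, had 2 regions called in all 6 lists. The genes of talin-1 and kindlin-3, Tln1 and Fermt3, had no region assigned. In this list 10 of 17 genes had a region, where 47.8% of all protein-coding genes did. Each region was given to 1 gene only, so a peak near a neighbouring gene could be credited there. For signals from bound integrins and cytoskeletal links, 28 of 43 E2 regions were lost (65.1%) and 7 of 22 at 120 h gained (31.8%). There 15 were kept and 8 called at neither end point, and 39 of the 58 regions lay away from gene starts and ends. The lost share of all regions was 50.6%, or 73.8% away from gene starts and ends. Lcp2, the adaptor SLP-76, had 4 lost regions and the guanine nucleotide exchange factors Vav1 and Vav3 had 3 each. Gained regions lay at the kinase gene Ptk2b, at Plcg2 and at the adhesion site genes Pxn, Vcl and Vasp, with 1 each. Fgr and Flna had the others, with 1 each. Ptk2b and Pxn also kept 2 regions each. Among these genes with a gained region, Plcg2 also had 2 lost ones, and Ptk2b, Pxn and Vasp had 1 each. Vcl, Fgr and Flna had no lost region.

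Marker regions were checked for the labelled cell type. Of 10 myeloid progenitor markers, 9 had a region, where 47.8% of all protein-coding genes did. The 9 had 21 regions called in continuous E2 and 3 at 120 h, and Elane had none. Of the 21, 90.5% were lost, against 50.6% of all regions called in E2 and 73.8% of those away from gene starts and ends. Of all 23 regions of these markers, 17 lay away from gene starts and ends. Of 12 neutrophil markers, 8 had one, with 5 called in continuous E2 and 7 at 120 h, and Camp, Ngp, Ly6g and Cxcr2 had none. Of those 7, 5 were gained (71.4%), against 18.4% of all regions called at 120 h and 36.2% of those away from gene starts and ends. Of all 10 neutrophil marker regions, 7 lay away from gene starts and ends. Of the 5 called in continuous E2, 3 were lost (60.0%), at Cebpe, S100a9 and Ltf. Monocyte and macrophage markers had 2 regions called in continuous E2, both lost, and 4 at 120 h, all gained. No region was assigned to any of 5 T cell markers, while B cell markers had 6, of which Ebf1 held 4. Of the 5 B cell marker regions called in continuous E2, 4 were lost (80.0%), and 1 of the 2 called at 120 h was gained. Erythroid and megakaryocyte markers had 1 region, and mast cell, basophil and eosinophil markers 1, both lost. The part of these cell types in the calls at the adhesion genes was not tested.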

How the data were processed

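ATAC-seq peak lists of 12 libraries were used, 1 list per group of 2. Per the labels, the same list is named for both libraries of a group, and how they were combined is not given in the sources used here. The deposited lists hold chromosome, start and end, with no score, so depth is unknown. The submitters' processing notes name BWA, MACS2 2.0, STAR 2.5 and the build mm9, with no role for each. The coordinates were tested on GRCm38: 47.9% to 63.4% of peaks met a RefSeq promoter window of that build, and 1.78% to 2.39% did after a shift of 100000 bases, so GRCm38 was used.

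Duplicate rows and intervals over 10000 bases were dropped and overlapping rows merged. Regions are the union of the 6 lists at an overlap of 1 base. A region was given to the protein-coding gene it overlaps (nearest start or end if several), or whose start or end is nearest within 50 kb. At a gene start or end means within 1000 bases. The genes and lists were chosen with earlier results of these data known. All 9 genes are named, and other adhesion genes were named for the most lost (6), gained (6) and kept (4) regions of a fixed list, wider first. Itga8, Itgb5, Selp, Cd44, Fut7, Icam1, Tln1, Fermt3, Fgr, Flna and the marker genes were chosen after their values were seen. Merging, classes and assignment were tested on simulated data. Alternatives changed overlap, distance, gene types, width and list length. Python 3.11.15, numpy 2.4.6, pandas 2.3.3 and matplotlib 3.10.9 were used.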

Additional observations from a re-analysis of the deposited data

How the results depend on the processing

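No paired analysis was possible because the libraries numbered 1 and 2 of a group share a single list, which also prevented leaving either of them out. Of 60 values recomputed in 6 settings, 41 stayed within 1.5 times the value reported. Under 50% reciprocal overlap and with distances of 20 or 100 kb all values did, although 20 kb left out the upstream Itgb1 region. With genes of every type, the regions of Itgam, upstream of Itgb1 and downstream of Itgax went to other genes, so calls of the 9 genes after 40 and 56 h were 2 and 3 (reported 4 and 5), and 35 regions of the adhesion list were lost (reported 54). When only peaks no narrower than their list's median were kept, lost and gained regions of the 9 genes were 1 and 1 (reported 4 and 2), calls after 24, 40, 56 and 72 h were 3, 1, 2 and 2 (reported 7, 4, 5 and 5), and the adhesion list had 22 lost, 5 gained and 19 kept (reported 54, 15 and 33). With lists of the 7987 widest peaks, 1 region of the 9 genes was lost, calls after 24, 40, 56 and 72 h were 3, 2, 3 and 3, and the adhesion list had 24 lost and 25 gained. These width settings remove narrow peaks by construction. The cut to 7987 peaks left the 120 h list whole and took narrow peaks from the other lists alone. It thus favours gained calls, and its gained counts cannot be read against those reported. Depth could not be examined, so a missing call may be a peak under the authors' threshold.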
